A study of Mus musculus with 4 samples.

Results

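S100 proteins are small calcium-binding proteins of the EF-hand superfamily, and the 10 S100 genes described here are S100a1, S100a4, S100a6, S100a8, S100a9, S100a10, S100a11, S100a13, S100a16 and S100b. They were taken as every probeset of the array whose annotation gives one of these symbols and no other, which found 14 probesets of 9 genes among 45037 probesets that are not Affymetrix controls. S100a11 was the gene without such a probeset, since the probeset that lists it also lists other genes, and it is not analysed here. The genes were selected on the fluoxetine minus control differences of these same arrays as well as on family membership, so the differences below describe them and are not independent evidence.

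Hippocampal RNA came from male DBA/2J mice, an inbred strain, aged 8 to 10 weeks per the labels. One group received untreated drinking water (dose 0) and the other fluoxetine, a serotonin reuptake inhibitor, in the water at 18 mg/kg per day for 21 days. That dose was set from average water intake and body weight. Each group of 12 mice gave 2 RNA pools of 6 mice, and every pool had its own Affymetrix Mouse Genome 430 2.0 array, so there were 2 control and 2 fluoxetine arrays. Pooling averages the mice, so the spread between animals is not seen, and in such bulk tissue fewer cells of a type and less RNA per cell cannot be told apart. Values are GCRMA intensities on a linear scale, and the submitters took 100 as the minimum for expression above background.

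An S100 protein carries a pair of EF-hand loops, usually works as a dimer, and on binding calcium exposes a surface that grips partner proteins. S100a10, known as p11, has lost the ability to bind calcium. It joins annexin A2 in a tetramer and helps to carry membrane proteins, among them the serotonin receptors encoded by Htr1b and Htr4, to the cell surface, and it is studied for its part in the response to antidepressants. S100b is a standard marker of astrocytes, and S100a8 and S100a9 form calprotectin, a major protein of neutrophils.

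Of the 10 genes, 9 lie on mouse chromosome 3 in the RefSeq annotation of GRCm38.p6. S100a1, S100a13, S100a16, S100a4, S100a6, S100a8 and S100a9 fall in this order within 185 kb. S100a11 and S100a10 (chr3:93555117-93564645) follow after a gap of 2.82 Mb. S100b is alone on chromosome 10 (chr10:76253836-76261319). The gene models of S100a1 (chr3:90511034-90514330) and S100a13 (chr3:90514233-90524581) overlap by 98 bases.

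The 150 bases just before the annotated start sites of S100a6 and S100a4 are shown because S100a6 had the largest difference among the tested S100 probesets, and because S100a4, under 100 in both control pools, exceeded 100 in 1 fluoxetine pool. They are RefSeq reference sequence of GRCm38.p6, plus strand, chr3:90612744-90612893 for S100a6 and chr3:90603620-90603769 for S100a4, and neither window overlaps an annotated gene. Capitals mark a match to any of the motifs searched.
S100a6: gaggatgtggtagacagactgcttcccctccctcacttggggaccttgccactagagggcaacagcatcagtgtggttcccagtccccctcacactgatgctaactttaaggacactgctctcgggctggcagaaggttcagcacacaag
S100a4: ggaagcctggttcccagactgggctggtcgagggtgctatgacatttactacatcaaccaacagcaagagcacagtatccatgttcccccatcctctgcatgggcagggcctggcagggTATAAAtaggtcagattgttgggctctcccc

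The motifs were AP-1 (TGANTCA), CRE (TGACGTCA), the GC box (GGGCGG), the TATA box (TATAAA), an E-box (CACGTG) and a STAT site (TTCNNNGAA), searched on both strands from 250 bases before to 50 after each start. No motif overlapped another in the printed windows. RefSeq windows were found for 9 of the 10 genes, 10 windows in all, and none for S100a10. S100a4 had TATAAA from base -31, where -1 is the last base before the start, and S100a8 had it from base -30. S100a6 had none of the motifs before its start and a CACGTG from base 15 after it. Among the 10 windows, 3 held TATAAA, 3 GGGCGG, 2 TGANTCA, 2 CACGTG and 0 each TGACGTCA and TTCNNNGAA. Over 32851 windows of this kind the shares were 13.6% for TATAAA, 35.7% for GGGCGG, 7.81% for TGANTCA, 7.15% for CACGTG, 1.79% for TGACGTCA and 8.30% for TTCNNNGAA. These matches describe the letters only.

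Among the 14 probesets, 10 reached 100 in at least 2 arrays and entered the test. These 10 represent S100a1, S100a6, S100a10, S100a13, S100a16 and S100b. Another 3 probesets, 1 each of S100a8, S100a9 and S100a10, were under 100 on every array. The S100a4 probeset reached 100 on 1 array, so it was too dim to be tested. Brightness depends on the probes, so levels of different probesets are not set against each other.

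All 10 tested S100 probesets were higher in both fluoxetine pools than in both control pools, against 21.9% of all 16938 tested probesets, and 3 of the 10 changed sign when the arrays were centred on spike-in controls. Their log2 differences ran from 0.27 (S100a1) to 2.25 (S100a6) with a median of 0.43, and the median over all tested probesets was -0.04. Of the 10 probesets, 9 reached 100 on all 4 arrays, and the remaining one, S100a1 1417421_at, on 3. At an adjusted p under 0.05 (limma, Benjamini-Hochberg over all tested probesets) 2 of the 10 were called, S100a6 and S100a13, both higher, and 0 were called lower. The same rule called 1.72% of all tested probesets in either direction and 1.03% as higher. As a description, the adjusted p was 0.0172 for S100a6 and 0.0352 for S100a13, and it lay between 0.0567 and 0.179 for the other 8. With any 1 of the 4 arrays left out, limma called none of the 10 and no other probeset.

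The 18 probesets of hybridisation spike-ins, a fixed quantity of foreign RNA given to every array, likewise read higher on both fluoxetine arrays, by 0.17 to 0.55 (median 0.36) on the log2 scale. Centring the arrays on them shifted the median of all tested probesets by -0.33, so that every difference from 0 to 0.33 changed sign, and with this scaling 256 of 11272 called probesets were higher, against 175 of 291 as deposited. S100a6 and S100a13 passed under this scaling too, at log2 1.91 and 0.41. Both S100a1 probesets and one of S100b turned to the other side of 0, at -0.07, -0.03 and -0.03. Those that stayed above 0 without a call were both tested S100a10 probesets at 0.28, S100a16 at 0.02 and 0.06, and S100b 1419383_at at 0.14. The part of this array difference in the S100 values was not tested.

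**Figure D1:**
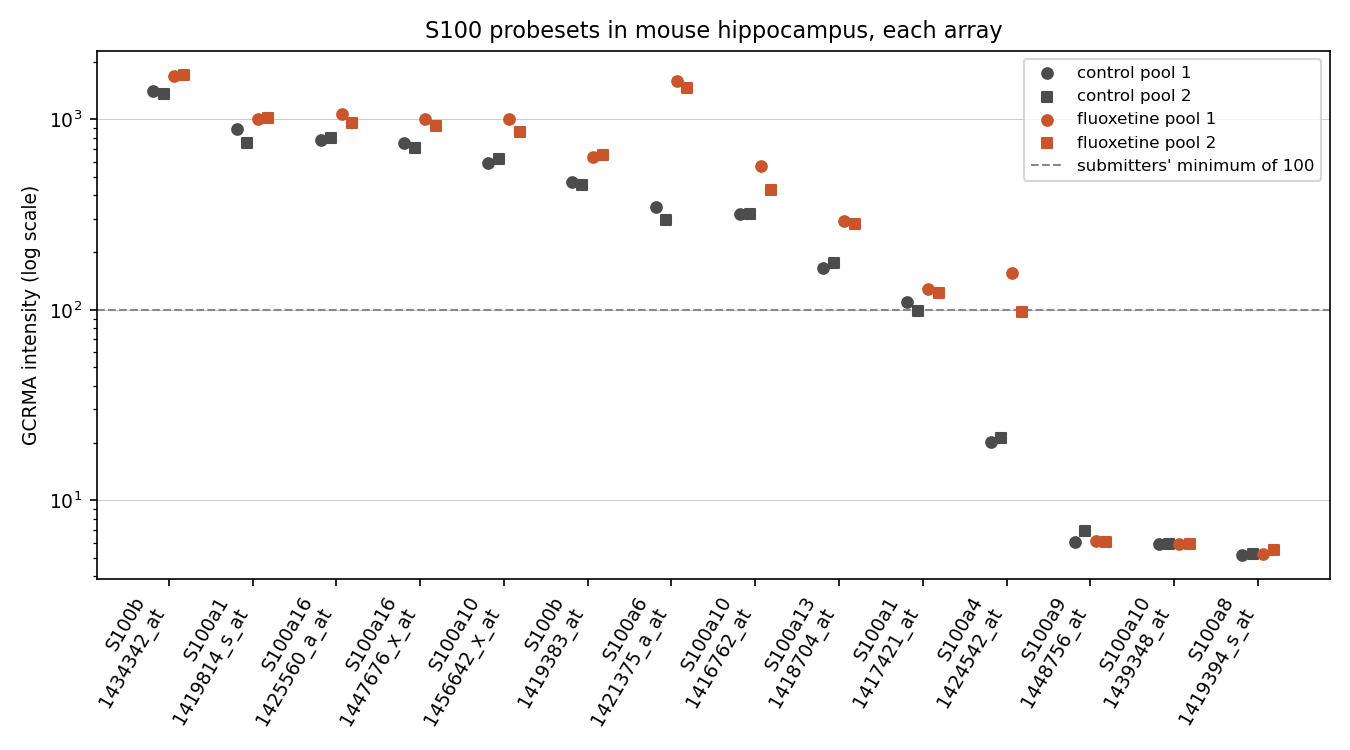
GCRMA intensity (log axis) of each of the 14 S100 probesets on each array, with control pools in grey and fluoxetine pools in orange, pool 1 as circles and pool 2 as squares, and the minimum of 100 as a dashed line. The 2 S100a6 values of fluoxetine pools, 1592 and 1454, stand clear of 348 and 296 in control pools, and the probesets of S100a8, S100a9 and the third of S100a10 lie far under 100.

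S100a6 had the largest difference among the tested S100 probesets. The gene (chr3:90612894-90614414) encodes calcyclin, a calcium sensor linked to cell proliferation and the cytoskeleton. Its probeset 1421375_a_at read 348 and 296 in control pools 1 and 2 and 1592 and 1454 in fluoxetine pools 1 and 2. Both fluoxetine pools were thus far above both controls, and pools of one group differed by 1.18-fold (control) and 1.09-fold (fluoxetine). The ratio of geometric means was 4.75, a log2 difference of 2.25 ± 0.11 (limma SE, n = 2 pools per group). Only 11 of the 16938 tested probesets had a larger positive difference. The difference was 2.36 without control pool 1, 2.13 without control pool 2, 2.18 without fluoxetine pool 1 and 2.31 without fluoxetine pool 2. None of these 4 fits called it, with limma's adjusted p from 0.0920 to 0.130.

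S100a4 (chr3:90603770-90606045) encodes a motility-associated protein that binds non-muscle myosin. Its probeset 1424542_at read 20.4 and 21.3 in control pools and 155 and 97.3 in fluoxetine pools. Both controls were far under the minimum, and of the fluoxetine pools only pool 1 exceeded it. Measured against 100, the fluoxetine mean of 123 was at least 1.23-fold higher. Fluoxetine pool 1 read 1.60 times pool 2, the widest gap between pools of a group among the S100 probesets.

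S100a10 was read by 3 probesets, of which 1456642_x_at and 1416762_at were tested. The first read 591 and 621 in control pools and 1009.8 and 857 in fluoxetine pools. The second read 318 and 319 in control pools and 565 and 425 in fluoxetine pools. In both, the lower fluoxetine pool was above the higher control pool, and fluoxetine pool 1 was the higher of its group, by 1.18-fold and 1.33-fold. The log2 differences of these probesets were 0.62 ± 0.10 and 0.62 ± 0.15 (limma SE, n = 2 pools per group), or 53.6% and 53.7% higher, and neither passed the threshold. Leaving out fluoxetine pool 1 gave 0.50 and 0.41, and leaving out fluoxetine pool 2 gave 0.74 and 0.83. With the arrays centred on spike-ins both were at 0.28. The third probeset, 1439348_at, read between 5.88 and 5.94 on all arrays and gave no measure of the gene. The ending _x_at marks probes that can match other transcripts, while 1416762_at has no such mark.

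S100a13 helps to export fibroblast growth factor 1 from cells without a signal peptide. Its probeset 1418704_at read 167 and 176 in control pools and 294 and 281 in fluoxetine pools. The groups did not overlap, and pool 1 minus pool 2 was -0.08 on the log2 scale in controls and 0.07 in fluoxetine. The difference was 0.75 ± 0.07 (limma SE, n = 2 pools per group), a 1.68-fold ratio. It stayed between 0.71 and 0.79 with each array left out, where its limma adjusted p was 0.168 without control pool 1, 0.178 without control pool 2, 0.134 without fluoxetine pool 1 and 0.153 without fluoxetine pool 2.

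S100a16, a widely expressed member of the family, showed a smaller difference. Its probeset 1425560_a_at read 776 and 799 in control pools and 1066 and 957 in fluoxetine pools. Its second probeset, 1447676_x_at, read 750.1 and 710.1 in control pools and 1002 and 919.8 in fluoxetine pools. The log2 differences were 0.36 ± 0.08 and 0.40 ± 0.08, so the probesets of this gene gave nearly one value.

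S100b is secreted by astrocytes and acts on neurons in a dose-dependent way. Its probeset 1434342_at read 1404 and 1352 in control pools and 1694 and 1714 in fluoxetine pools, a log2 difference of 0.31 ± 0.07. The other, 1419383_at, read 472 and 452 in control pools and 631 and 649.6 in fluoxetine pools, a difference of 0.47 ± 0.07. Neither passed the threshold, although pools of a group differed by no more than 0.06 on the log2 scale in either probeset.

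S100a1, a regulator of ryanodine receptors and of the sarcoplasmic calcium pump, had the smallest differences. Probeset 1419814_s_at read 887 and 755 in control pools and 1000.03 and 1018 in fluoxetine pools. Probeset 1417421_at, close to the minimum, read 109.9 and 98.9 in control pools and 129 and 122 in fluoxetine pools. These were log2 differences of 0.30 ± 0.10 and 0.27 ± 0.08, and control pool 1 was 0.23 and 0.15 above control pool 2. Without control pool 1 the differences were 0.42 and 0.34, and without control pool 2 they were 0.18 and 0.19.

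The calprotectin genes gave no signal. S100a8 (1419394_s_at) read between 5.18 and 5.51 on the 4 arrays and S100a9 (1448756_at) between 6.03 and 6.92, all far under 100. All 8 neutrophil markers with a probeset (Ngp, Camp, Ltf, Mpo, Elane, Cxcr2, Mmp8 and Lcn2) were under 100 on every array as well. Of the other S100 genes on a list of 8, 4 had a probeset, S100a3, S100a5, S100a14 and S100g, and none reached 100 on any array, with values from 3.33 to 8.11.

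**Figure D2:**
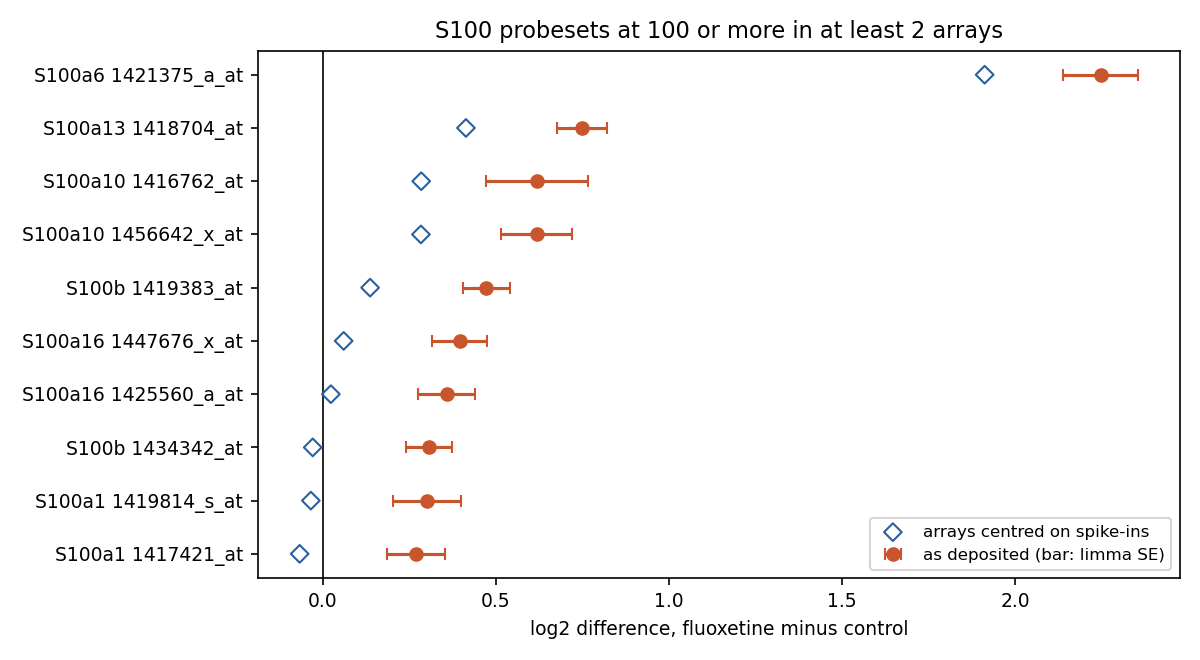
Log2 difference, fluoxetine minus control, of the 10 tested S100 probesets as deposited (filled circles, bars are limma standard errors, 2 pools per group) and with the arrays centred on the spike-in probesets (open diamonds). S100a6 lies at 2.25 and the other 9 between 0.27 and 0.75, and under spike-in centring the probesets of S100a1 and one of S100b lie just under 0.

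Genes whose products bind p11 were followed from a list of 15, of which 14 had a probeset and 10 were tested. Of these 10, 0 were called higher and 1 lower by limma at the brightest tested probeset, and their median log2 difference was 0.18. Among all 9030 genes so represented 1.86% were called in either direction and the median was -0.03. The gene called lower was Htr1b, a serotonin receptor that p11 binds.

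Anxa2, which encodes the annexin that holds p11 in its tetramer, read 102 and 108 in control pools and 385 and 191 in fluoxetine pools. Fluoxetine pool 1 was 2.02 times pool 2, so the groups did not overlap but the spread within the treated group was wide. The log2 difference of 1.37 ± 0.34 missed the threshold (adjusted p = 0.117 by limma). Ahnak, a very large scaffold protein bound by the annexin A2 and p11 complex, read 150.2 and 169.7 in control pools and 219 and 269.7 in fluoxetine pools, a difference of 0.61 ± 0.13 (adjusted p = 0.0957 by limma). Here fluoxetine pool 2 was the higher one, unlike S100a10 and Anxa2.

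The serotonin receptor genes among the p11 partners lay on opposite sides of 0. Htr1b read 191 and 217 in control pools and 86.6 and 92.0 in fluoxetine pools, both under 100, so that it was at least 2.03-fold lower when measured against 100 (adjusted p = 0.0262 by limma). Htr4 read 345 and 290.1 in control pools and 469 and 474 in fluoxetine pools, or 0.58 ± 0.10 on the log2 scale, which missed the threshold (adjusted p = 0.0755 by limma). Htr1d was under 100 on every array, at 12.6 to 13.1. With any 1 array left out, Htr1b was not called either, since limma then called 0 probesets in all.

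Plat, the tissue plasminogen activator, for which p11 serves as a surface docking protein, read 525 and 559 in control pools and 959 and 819 in fluoxetine pools. Its log2 difference was 0.71 ± 0.10 (adjusted p = 0.0558 by limma), just outside the threshold. Hltf, the chromatin remodeller SMARCA3 that the p11 and annexin A2 complex binds in the nucleus, read 450.2 and 437 in control pools and 439.8 and 467 in fluoxetine pools, and these groups overlapped (log2 0.03 ± 0.07). The metabotropic glutamate receptor gene Grm5 was at log2 -0.27 ± 0.07 and did not pass (adjusted p = 0.116 by limma). The other tested probesets of Hltf and Grm5 were at -0.16 and -0.14, with groups that overlapped. At the brightest probeset Ctsb (0.23), Asic1 (0.12) and Bad (0.05) had small positive log2 differences that did not pass. The other tested probeset of Bad was at -0.18, and those of Ctsb were at 0.31, -0.02 and -0.14. Kcnk3, Plg and Trpv6 were under 100 everywhere.

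**Figure D3:**
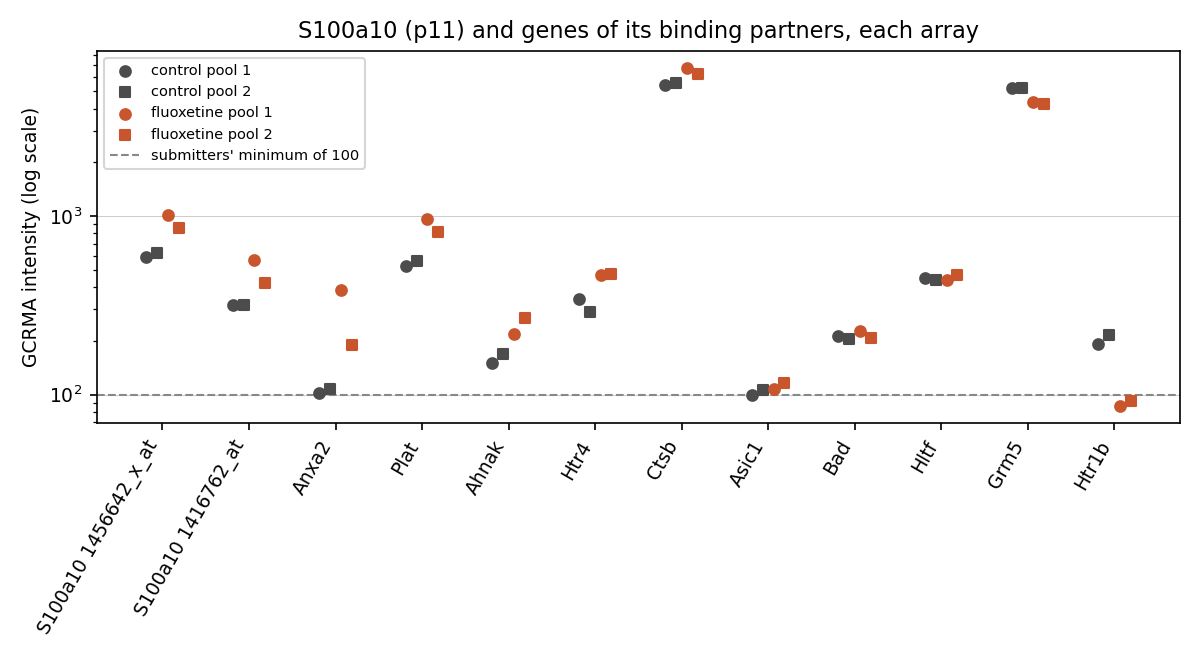
GCRMA intensity (log axis) on each array of the 2 tested S100a10 probesets and of the 10 tested genes on the list of p11 partners, ordered by log2 difference, with control pools in grey, fluoxetine pools in orange and the minimum of 100 dashed. Anxa2 shows a wide gap between fluoxetine pool 1 (385) and pool 2 (191), and Htr1b is the gene whose fluoxetine pools both fall under 100.

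Genes listed as partners of the other S100 proteins numbered 19, with 15 tested. Of these, 1 was called higher and 1 lower by limma, beside 1.86% of all genes in either direction, and the median log2 difference was -0.03. Some entries of this list are less firmly tied to S100 proteins than others. Anxa5, a calcium-dependent phospholipid-binding annexin, rose from 817 and 843 in control pools to 1361 and 1229 in fluoxetine pools (log2 0.64 ± 0.08, adjusted p = 0.0460 by limma). Ndrg1, a stress-responsive gene abundant in oligodendrocytes, fell from 1189 and 1192 to 827 and 798 (log2 -0.55 ± 0.07, adjusted p = 0.0439 by limma). All 5 of its tested probesets had the same direction, from -0.37 to -0.96, and 3 of them passed. Both calls were lost with any 1 array left out.

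The partners of single S100 proteins varied. Cacybp, the calcyclin-binding protein named after its grip on S100a6, read 3751 and 3764 in control pools and 4045 and 3762 in fluoxetine pools, so the groups overlapped (log2 0.05 ± 0.07). Myh9, the non-muscle myosin heavy chain bound by S100a4, read 1101 and 942 in control pools and 1462 and 2048 in fluoxetine pools, or 0.76 ± 0.18 on the log2 scale, which missed the threshold (adjusted p = 0.115 by limma). Fgf1, the growth factor exported with S100a13, was at log2 0.20 ± 0.07 and did not pass (adjusted p = 0.174 by limma). The other tested probesets of Myh9 and Fgf1 were at 1.04 and 0.12, and neither passed. Anxa1 read 64.8 and 70.7 in control pools and 118 and 89.6 in fluoxetine pools, reaching 100 on 1 array, and was too dim to be tested. Anxa6, with a log2 difference of 0.30, and Ryr2, with -0.18, did not pass either. The other tested Anxa6 probesets were at 0.07 and -0.24.

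Receptors for extracellular S100 proteins were mostly dim. Ager, which encodes the receptor RAGE, read 10.2 to 10.4 and Tlr4 5.65 to 6.23 on the 4 arrays, and Cd36 and Cd33 were under 100 everywhere too. The tested receptors were Bsg, a receptor of S100a9, at log2 0.21 ± 0.08, and Fgfr1, which S100b can engage, at 0.42 ± 0.10. Neither passed (adjusted p = 0.240 and 0.114 by limma). The other tested Fgfr1 probeset was at 0.38, with groups that overlapped. Of 40 distinct partner and receptor genes in the p11, partner and receptor lists, 27 were tested, 1 was called higher and 2 lower. Among all 9030 genes 1.86% were called in either direction.

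The S100 values can be set beside other EF-hand calcium buffers and sensors from a list of 30, of which 25 were tested. At the brightest probeset limma called 0 in either direction, and the median log2 difference was -0.06. Of the 25, 10 had an unadjusted p under 0.05 by limma, as did 3816 of all 16938 tested probesets. At the brightest probeset 8 genes were higher and 10 lower without overlap between the groups. Among all 9030 genes so represented, 23.6% were higher and 32.7% lower without overlap. Calb1, a calcium buffer of granule cells, was at -0.45 ± 0.08 there, but of its 3 tested probesets another was called lower, at -1.16 ± 0.14 (adjusted p = 0.0436 by limma), and the remaining one was at -1.01. Rcn1 was at -0.53 ± 0.13 and Efhd1 at -0.48 ± 0.09. Kcnip3 (0.50 ± 0.16), Efhd2 (0.52 ± 0.21) and Necab3 (0.48 ± 0.20) lay on the other side. Over all 42 tested probesets of these genes the log2 differences ran from -1.16 (Calb1) to 0.52 (Efhd2). Those of the tested S100a6, S100a10 and S100a13 probesets lay above this range, while those of S100a1, S100a16 and S100b lay within it. For S100a10, at 0.62 ± 0.10 and 0.62 ± 0.15, the distance from Efhd2 was small beside these standard errors. The S100 genes were selected on these same differences, so their place against this range is a description and not evidence.

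Markers of other cells moved with the S100 values to different degrees. Among all 9030 genes at their brightest tested probeset, limma called 118 higher and 50 lower, or 1.86% in either direction. Of 12 astrocyte genes tested, 3 were called higher by limma (Gfap, Vim and Aqp4) and 0 lower, with a median log2 difference of 0.12, and the summed intensity of the list was 78023 and 79881 in control pools and 90664 and 92532 in fluoxetine pools. Of the 12, 8 lay above 0. The 9 that were not called ran from -0.44 (Fgfr3) to 0.27 (Gja1), with Slc1a2 at 0.11, Sox9 at 0.10, Slc1a3 at -0.06 and Glul at -0.17. Of 10 microglia genes 9 were tested, 5 called higher and 0 lower, with a median of 0.79, and the sum went from 7348 and 7112 to 11795 and 11369. Of 9 tested oligodendrocyte genes 0 were called by limma in either direction, with sums of 59765 and 59533 against 57199 and 56862. Of these 9, 0 had an unadjusted p under 0.05 by limma, beside 3816 of all 16938 tested probesets.

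Of 7 tested fibroblast and meningeal genes 1 was called higher by limma, Col3a1, and 0 lower, beside 1.86% of all genes called in either direction. Col1a2 was at 0.83, Dcn at 0.19 and Ptgds at -0.91, Col1a1 and Slc6a13 were under 100 everywhere, and the sums were 13076 and 19600.3 in control pools and 12589.5 and 8941 in fluoxetine pools. Choroid plexus sums differed most by pool number, at 38109.5 and 2115 in control pools 1 and 2 and 51526 and 4531 in fluoxetine pools 1 and 2. The groups thus overlapped in this sum, and of the 2 tested choroid plexus genes 0 were called by limma. S100a4 and both tested S100a10 probesets were higher in fluoxetine pool 1 than in pool 2, and slightly lower in control pool 1 than in control pool 2. S100a6, S100a16 1447676_x_at and S100a1 1417421_at were higher in pool 1 than in pool 2 in both groups. Each other tested S100 probeset was higher in pool 1 in control or in fluoxetine pools, but not in both. Endothelial and mural genes had 7 tested members, 2 called higher and 0 lower, with sums from 4569 and 4588 to 5670.3 and 5539 (Pecam1 and Kcnj8 under 100). Ependymal genes other than Rarres2 and all 3 red cell genes with a probeset were under 100. The 10 hippocampal neuron genes were all above 100 somewhere, with 0 called by limma. Of these 10, 2 had an unadjusted p under 0.05 by limma, as did 3816 of all 16938 tested probesets. The sums of the neuron genes were 75188 and 75375 in control pools and 73673 and 73626 in fluoxetine pools. The part of these cells in the S100 differences was not tested.

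**Figure D4:**
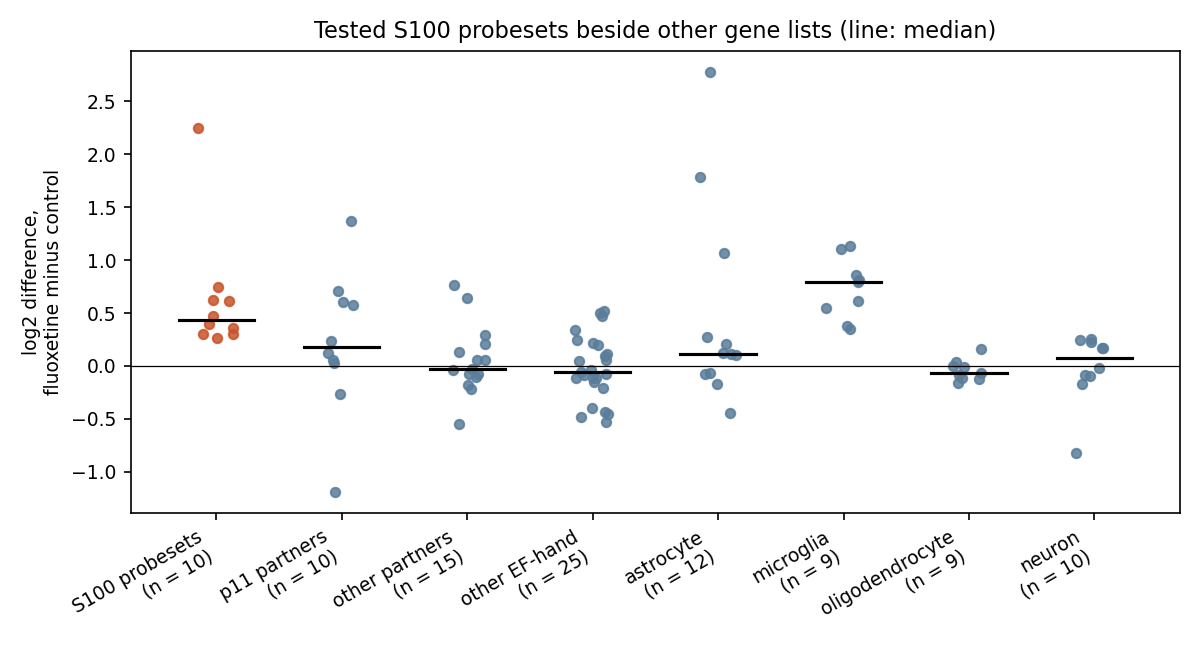
Log2 difference, fluoxetine minus control, of the 10 tested S100 probesets (orange) and of the tested genes of 7 lists (blue, 1 probeset a gene), each point a probeset and each black line the median of its list. As deposited, the S100 points all lie above 0 with a median of 0.43 (3 change sign with spike-in centring), the other EF-hand genes spread around 0 with a median of -0.06, and the microglia genes have a median of 0.79.

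The genes whose values over the 4 arrays were most like those of S100a6 and S100a10 were found from the root mean square distance between centred log2 values, among 9029 other genes. For S100a6 these were Bdnf (distance 0.09), Col3a1 (0.14), Olfm4 (0.18), Npy (0.18) and Ecel1 (0.24). Bdnf, the brain-derived neurotrophic factor, read 628 and 593 in control pools and 2699.8 and 2741 in fluoxetine pools. For S100a10, compared at its brightest probeset 1456642_x_at alone, they were Adgre5 (0.01), Col16a1 (0.03), 2810459M11Rik (0.03), Anxa5 (0.03) and Pbxip1 (0.04). Adgre5, an adhesion receptor of blood cells, read 103 and 109 in control pools and 175 and 153 in fluoxetine pools. With 4 arrays, such likeness reflects mainly the size of the group difference and describes these arrays alone.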

How the data were processed

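Values are probeset intensities that the authors deposited on a linear scale, after GCRMA normalization in ArrayAssist, according to the series design text. This method removes background estimated from probe sequence, equalizes the arrays and draws dim probesets to a common floor. Its version is not given in the sources. Groups and pool numbers came from sample titles. Values were taken to log2 with no pseudocount. Tests covered the 16938 probesets with 100 or more on 2 or more arrays. limma 3.58.1 (R 4.3.3) compared the groups with lmFit and eBayes, no covariate, two-sided, Benjamini-Hochberg over all tested probesets, threshold 0.05. The fit was tested on simulated data. An exact permutation test of these pools cannot give a p under 0.333. The pools are separate biological samples per the labels, and the number of arrays, with medians of 22.5 to 23.2, limits precision. Means are geometric, and n counts pools.

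Probesets were named from the platform annotation: 34945 with 1 symbol, 932 with several and 9160 with none, genes being named from the first kind alone. Matching by gene number to RefSeq (GRCm38.p6) changed 0 symbols. Lists use each gene's brightest tested probeset. All S100 probesets are named, and from each list the largest differences, with any p11 partner allowed. S100 genes, lists and tests were chosen with earlier results of these data known. Alternatives were other filters, scalings, a floor, a pseudocount, left-out arrays, a replicate block, other variance priors and fewer probesets. Protein sequences were not used here. Figures were drawn with matplotlib 3.10.9.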

Additional observations from a re-analysis of the deposited data

How the results depend on the processing

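By limma, 291 probesets of all genes, 2 S100 probesets and 3 partner or receptor genes were called as deposited. With no intensity filter these counts were 0, 0 and 0 (unadjusted p under 0.05: 5396, 10 and 15). With trend and robust settings 532 probesets and 4 S100 probesets were called, and with median centring 4 S100 probesets. Spike-in centring called 11272 probesets and 13 partner or receptor genes. It reversed 3 S100 differences, S100a1 1419814_s_at to -0.034, S100a1 1417421_at to -0.066 and S100b 1434342_at to -0.028, since it subtracts the spike-in difference from every probeset. With each array left out in turn the 3 counts ranged from 0 to 0, with 2657 to 3515, 8 to 10 and 10 to 11 at an unadjusted p under 0.05, in fits with fewer samples where the lone array is assumed to vary like the others. The pool number as a replicate block left 9, 1 and 0 calls (3621, 10 and 12 unadjusted), S100a6 being the S100 call kept and S100a13 the one lost (adjusted p = 0.104 by limma). The labels do not show that the numbers pair the mice. Deviations of same-numbered pools correlated at 0.14 over all tested probesets, while the choroid plexus sum was higher in pool 1 of both groups. Of 136 pairs of S100 probeset and alternative, 116 kept direction and side of the threshold and 11 lost a call. A call was gained in 6 (S100a10 1456642_x_at in 2 and S100b 1419383_at in 4), and 3 reversed. All 11 losses were of S100a6 or S100a13, the only S100 probesets with a call to lose. Most of the 116 pairs were thus uncalled probesets that stayed uncalled. Probesets under 100 on some or all arrays, S100a4 among them, are limited by signal over background.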
